A study of Mus musculus with 2 samples.

Results

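The genes described here are 40 developmental regulators of other tissues: transcription factors that specify cell lineages outside the cerebral cortex, taken as a named list of protein-coding genes. All 40 were found among the 21884 protein-coding genes of unique symbol in the annotation used. They were placed in 6 groups by a tissue in which each acts, which need not be its best-known or only tissue. The groups include midbrain, hindbrain and spinal cord (18 genes), ventral forebrain (2), blood and lymphoid cells (4) and heart and limb (9). The others are gut endoderm and floor plate (2), and axial skeleton, kidney and skeletal muscle (5). The rule uses no value measured in these libraries, but the list was drawn up with earlier results of these data known.

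Open chromatin was profiled by DNase-seq, in which the enzyme DNase I cuts accessible DNA in isolated nuclei and the cut ends are sequenced. The tissue was left cerebral cortex of adult male B6CASTF1/J mice, a cross of C57BL/6J and CAST/EiJ, aged 18 to 20 months, and it was profiled as 2 libraries of 1 group with no treatment or second condition. They are labelled as biological replicates 1 and 2 and come from separate tissue samples under a single donor entry, so the spread between them may be technical. With 1 group no comparison of conditions and no test is possible, and each value below is given for replicate 1 and then replicate 2.

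Replicate 1 had 73221 peaks in the shorter of its deposited lists and replicate 2 had 111105, with median peak signals, in the authors' own unit, of 1.24 and 0.894. Read totals were not used here, so the number of calls is the only measure of depth. Of 8 excitatory neuron markers, all 8 had a promoter peak in both libraries. Markers of other cells were sparser: 2 and 0 of 8 for endothelium, 2 and 2 for microglia, 1 and 1 for erythroid cells and leukocytes, 3 and 4 for meninges and fibroblasts, 0 and 2 for choroid plexus, and 3 and 4 for cerebellum.

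Lineage regulators of this kind commonly have promoters in CpG islands, stretches rich in the dinucleotide CpG that in most genes stay free of DNA methylation and accessible in every tissue. Where such a regulator is silent, its island is a classic target of Polycomb group proteins, which mark the nucleosomes and compact the chromatin. Paired box (Pax), LIM homeodomain (Lhx, Isl, Lmx), GATA and T-box (Tbx) factors bind DNA directly, and each acts in a few lineages during development, with some kept on in adult cells.

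Most promoters of the 40 genes had no DNase-seq peak in aged cortex. A promoter peak, meaning a peak of the shorter list that overlapped the 1 kb on either side of an annotated transcription start site (TSS), was present at 6 of the 40 genes in replicate 1 and 5 in replicate 2 (5.5 ± 0.71, SD, n = 2). Over all protein-coding genes the shares were 60.7% and 61.2%, against 15% and 12.5% of the 40. In both libraries at once, 2 of the 40 had a promoter peak, Isl1 and Tbx3, against 58.7% of all genes. Another 7 had one in a single library: En2, Atoh1, Lhx3 and Foxa1 in replicate 1, and Lhx4, Lhx5 and Pax9 in replicate 2. The remaining 31 had none in either. When the list of replicate 2 was cut by strength to the number of peaks in replicate 1, replicate 2 kept Tbx3 alone, against 57.1% of all genes. The list of replicate 1 was not shortened by this, so its 6 of the 40 and 60.7% of all genes were unchanged.

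The longer and wider peak list of each library, which admits weaker calls, gave 15 and 13 of the 40 genes a promoter peak, against 65.0% and 66.0% of all genes. In both libraries the longer list held 9 of them (En2, Lhx3, Lhx4, Lhx5, Isl1, Tal1, Tbx3, Tbx5 and Pax9), against 63.3% of all genes. At the level of single bases, the authors listed each base whose false discovery rate was at most 0.05, here called a listed base. At least 1 listed base lay within 1 kb of a TSS for 16 and 15 of the 40, against 65.8% and 67.1% of all genes. No listed base in either library was found at 19 of the 40 (47.5%), against 31.2% of all genes. Footprints, short protected stretches that the authors called inside open chromatin, lay in the promoters of 12 and 11 of the 40, against 63.4% and 63.8% of all genes.

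**Figure D1:**
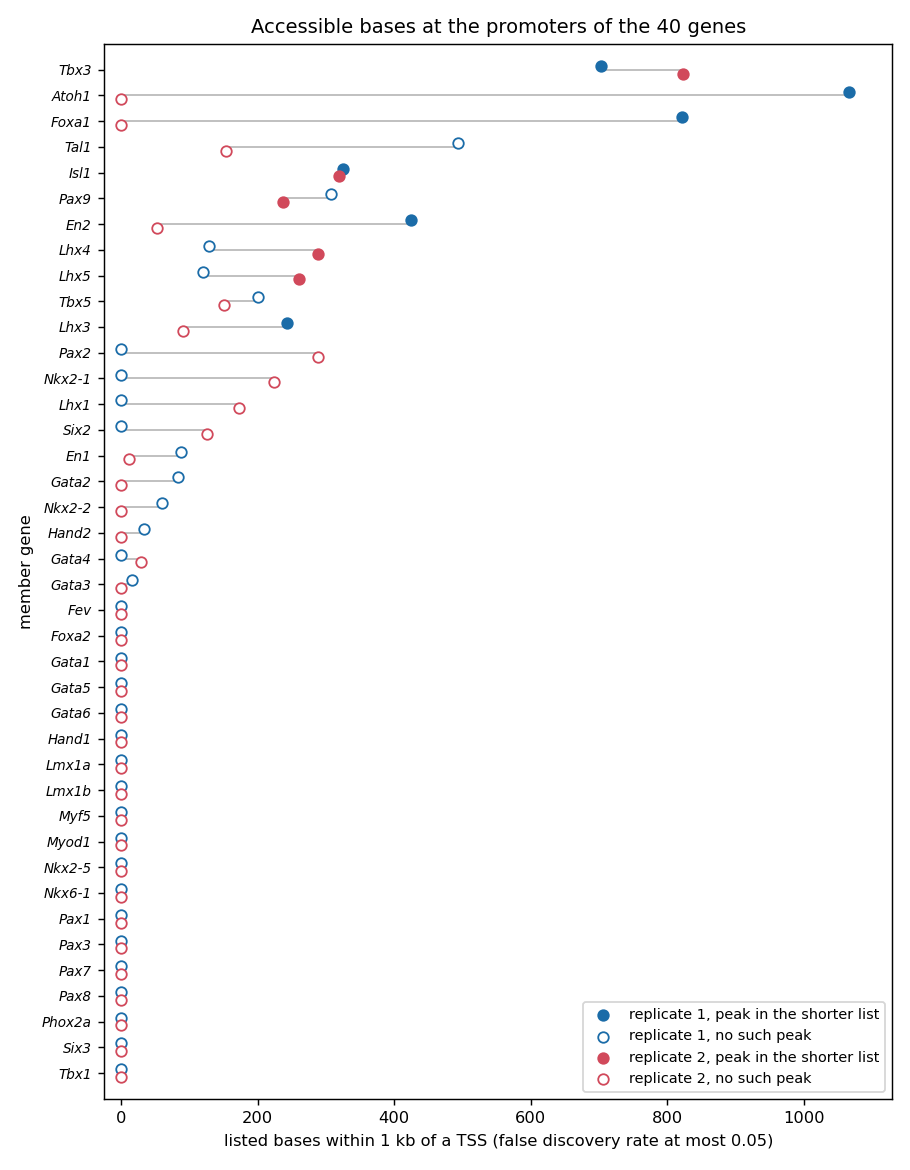
Listed bases within 1 kb of a TSS (x axis, number of bases) for each of the 40 genes (y axis), with replicate 1 in blue and replicate 2 in red. Filled points mark a shorter-list promoter peak, and 19 genes sit at 0 in both libraries while Tbx3 is high in both and Atoh1 and Foxa1 are high in replicate 1 alone.

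These promoters were nonetheless mostly rich in CpG. Within 500 bp of the most upstream TSS, the 40 genes had a median observed over expected CpG ratio of 0.67 and a GC content of 59.9%, against 0.57 and 55.2% over all genes. A CpG-rich run, built from 200 bp windows with at least 50% GC and a ratio of at least 0.6, reached the TSS region of 37 of the 40, and its median length was 1121 bp against 656 bp over all genes. The sequences upstream of 6 start sites show the range. Isl1 and Tbx3 are shown because they were open in both libraries, Atoh1 because it was open in 1, and Phox2a, Fev and Gata1 because they were open in neither. Each comes from the 250 bases before the TSS, written on the gene's strand with every CpG in capitals, from the RefSeq copy of GRCm38.p6. Only the stretch outside annotated exons is written, so those of Tbx3 and Fev stop 135 and 54 bases short of the TSS.
Isl1 promoter: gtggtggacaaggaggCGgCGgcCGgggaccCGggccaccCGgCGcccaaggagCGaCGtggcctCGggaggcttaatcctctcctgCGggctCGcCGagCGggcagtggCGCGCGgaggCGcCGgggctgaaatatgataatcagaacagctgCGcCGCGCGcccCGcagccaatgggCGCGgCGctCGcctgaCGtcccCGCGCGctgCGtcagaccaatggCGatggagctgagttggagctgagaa
Tbx3 promoter: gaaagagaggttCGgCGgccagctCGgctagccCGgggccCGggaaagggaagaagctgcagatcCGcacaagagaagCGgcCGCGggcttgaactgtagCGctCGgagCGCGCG
Atoh1 promoter: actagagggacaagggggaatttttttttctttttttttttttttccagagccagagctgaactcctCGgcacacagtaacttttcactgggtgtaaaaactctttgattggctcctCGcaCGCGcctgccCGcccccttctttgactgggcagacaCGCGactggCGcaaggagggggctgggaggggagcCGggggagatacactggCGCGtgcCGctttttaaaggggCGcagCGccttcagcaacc
Phox2a promoter: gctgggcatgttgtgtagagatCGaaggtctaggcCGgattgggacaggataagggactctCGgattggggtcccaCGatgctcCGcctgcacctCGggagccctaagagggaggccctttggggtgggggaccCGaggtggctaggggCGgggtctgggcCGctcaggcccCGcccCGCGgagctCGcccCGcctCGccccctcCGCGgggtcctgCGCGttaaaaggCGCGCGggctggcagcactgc
Fev promoter: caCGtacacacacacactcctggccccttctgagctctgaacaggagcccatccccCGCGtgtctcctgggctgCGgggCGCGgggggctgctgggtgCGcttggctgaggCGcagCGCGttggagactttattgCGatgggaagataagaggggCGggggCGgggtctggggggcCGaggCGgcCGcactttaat
Gata1 promoter: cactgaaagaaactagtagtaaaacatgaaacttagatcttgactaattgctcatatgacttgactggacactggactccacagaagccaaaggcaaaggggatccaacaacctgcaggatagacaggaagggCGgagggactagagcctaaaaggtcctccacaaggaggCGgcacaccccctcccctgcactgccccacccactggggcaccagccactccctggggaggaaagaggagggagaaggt

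The Isl1 sequence (chr13:116309690-116309939, minus strand) holds 33 CpG and is 71.2% GC, and that of Tbx3 (chr5:119670419-119670533, plus strand, 115 bases) holds 14. The Atoh1 sequence (chr6:64728875-64729124, plus strand) also holds 14 CpG. Those of genes without any listed promoter base were not always poorer than that of Atoh1. Phox2a (chr7:101818063-101818312, plus strand) has 22 CpG and Fev (chr1:74885474-74885669, minus strand, 196 bases) has 16, whereas Gata1 (chrX:7967911-7968160, minus strand) has 2 in 250 bases at 54.0% GC. The lengths differ, and per base the Isl1 and Tbx3 stretches were the densest in CpG of these 6. The stretches of Phox2a and Fev held more CpG than that of Atoh1. The Atoh1 promoter peak of replicate 1 (chr6:64729421-64729629) lay downstream of the TSS and so outside the stretch written here. The Tbx3 promoter peaks also lay outside the Tbx3 stretch.

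When all genes were ranked by CpG ratio into 10 equal classes, 32 of the 40 fell in the upper 5 classes. Of the 10942 genes in these classes, 93.0% and 91.8% had a promoter peak. Of the 32 regulators, 5 and 5 had one (15.6% in each library). The median listed share of promoter bases was 42.4% and 51.0% over the CpG-rich genes and 0 in both libraries over the 32. No listed base in either library was found at 13 of the 32 (40.6%) but at 329 of the 10942 (3.01%). Put the other way, 13 of the 19 regulators without a listed base were CpG-rich in this sense, against 329 of all 6825 such genes. This is a smaller part than the 32 of 40 in the whole list. In the lower 5 classes, where 28.3% and 30.6% of genes had a promoter peak, the other 8 regulators had 1 and 0. No listed base in either library was found at 6 of these 8 (75%), against 59.4% of genes in those classes.

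Long CpG-rich runs were no exception. Among genes with a run over 1000 and up to 2000 bp, 93.7% and 92.3% had a promoter peak, against 2 and 0 of the 16 regulators in that class. Above 2000 bp the shares were 88.7% and 86.5% of 622 genes, against 2 and 2 of 6 regulators.

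**Figure D2:**
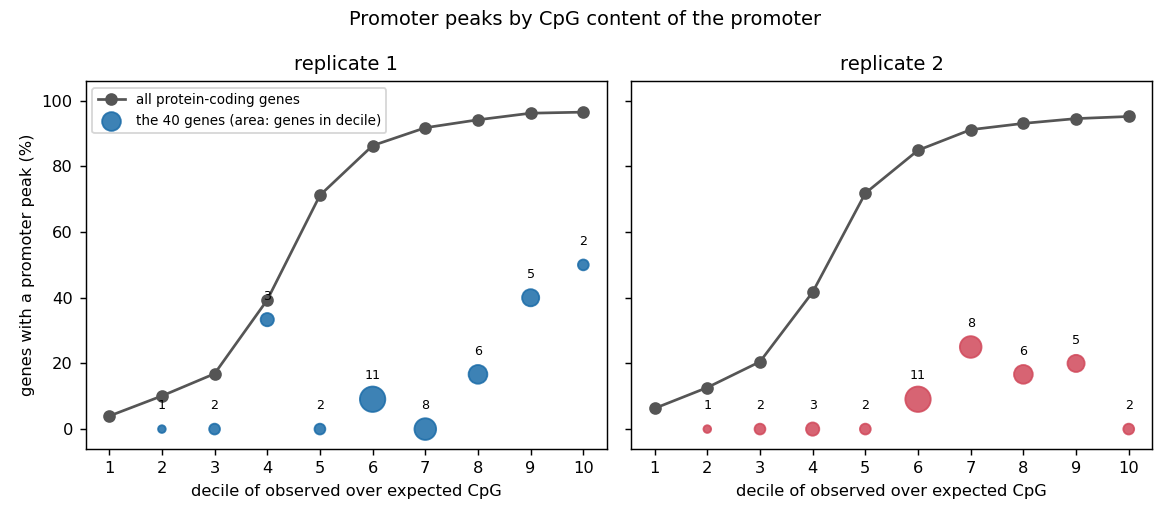
Percent of genes with a shorter-list promoter peak (y axis) by decile of the observed over expected CpG ratio (x axis, 10 is highest), for all genes (grey line) and the 40 regulators (coloured points, area and number giving the regulators in the decile). In deciles 6 to 10 the grey line stays above 84.9% while the regulators reach 50% at most, in a decile that holds 2 of them.

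Family members and cortical factors were set beside them. Of 39 paralogues, genes of the same families outside the list, 13 in each library had a promoter peak (33.3%), 11 of them in both. The highest were Mga (5.19 and 2.64), Foxa3 (5.11 and 4.26), Lhx2 (2.90 and 3.09), a cortical selector gene, and Tbx6 (3.28 and 2.20). Of the 24 paralogues with none in either library, the first 4 by alphabet were Lhx6, Lhx8, Lhx9 and Lyl1. Of 30 transcription factors that act in the cortex, 27 and 29 had one, led by Egr1 (9.11 and 5.16), Id2 (5.98 and 7.53), Pou3f3 (6.00 and 5.75) and Tcf4 (4.17 and 3.39). Fezf2 alone had no shorter-list promoter peak in either library, although 393 and 801 of its promoter bases were listed. Lhx2, Pax6 and Tbr1 stand in both of these lists. Within the upper 5 CpG classes the counts were 17 of 17 cortical factors and 8 of 20 paralogues in each library. The median listed share of promoter bases was 27.0% and 34% over cortical factors, 1.19% and 0 over paralogues, and 0 and 0 over the 40 regulators, against 23.1% and 28.2% over all genes.

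The promoter peaks that the 40 genes did have were below the usual strength. Their signals ran from 0.363 to 1.06 in replicate 1 and from 0.567 to 0.854 in replicate 2, against medians over all promoter peaks of 1.86 and 1.39. Of all promoter peaks, 30.8% and 31.8% were at or below the highest of the 40 genes. Taking only each gene's highest peak, the range over the 40 was 0.482 to 1.06 and 0.567 to 0.854, and the median over all genes with a promoter peak was 3.82 and 2.88. The highest signal among the 40, Lhx3 in replicate 1 and Tbx3 in replicate 2, was at or above that of 9.99% and 10.96% of those genes.

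Tbx3, a T-box repressor needed for limb, heart conduction and mammary development, had the most bases open in both libraries. Its peak at the start site had a signal of 0.976 and 0.854, spanned chr5:119670588-119670880 in replicate 1 and chr5:119670601-119670992 in replicate 2, and lay mostly in the 5′ UTR. Of 2350 promoter bases, 703 and 823 were listed, all within 500 bp of the most upstream TSS. Isl1, the LIM homeodomain factor of motor neurons and cardiac progenitors, had signals of 0.825 and 0.567 in peaks that ended at its first exon, chr13:116309648-116309845 and chr13:116309681-116309785. Of 2268 promoter bases, 325 and 319 were listed, again all within 500 bp. Both genes had no listed base between 500 bp and 10 kb of that TSS on either side, in either library.

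Atoh1, the basic helix-loop-helix factor of cerebellar granule cell precursors, and Foxa1, a forkhead pioneer factor of gut endoderm, split the libraries. At Atoh1, 1067 of 2001 promoter bases were listed in replicate 1 and 0 in replicate 2, where no base within 10 kb was listed. The replicate 1 bases numbered 1964 within 10 kb, from 1.5 kb upstream to 6 kb downstream, although the only shorter-list peak at the promoter (chr6:64729421-64729629, in the coding exon) had a signal of 0.482. At Foxa1, 822 of 2001 promoter bases were listed in replicate 1 and 0 in replicate 2. Within 10 kb the counts were 3159 and 219, and the replicate 1 bases ran from 5 kb upstream to 7.5 kb downstream. The higher of its promoter peaks, in the intron at chr12:57545041-57545220, had a signal of 0.693. Over all genes, at least 800 promoter bases in replicate 1 with 0 in replicate 2 was seen at 11 of the 8468 genes with that many in replicate 1 (0.130%), Atoh1 and Foxa1 among them. The reverse was seen at 8 of 10203 genes (0.078%), none of them among the 40, and the limit of 800 bases was chosen after these values were seen. At a limit of 400 bases the order turned: 40 of 12333 genes (0.324%) had their bases in replicate 1 alone, with the same 2 regulators among them, against 61 of 12768 (0.478%) in replicate 2 alone, with none of the 40.

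**Figure D3:**
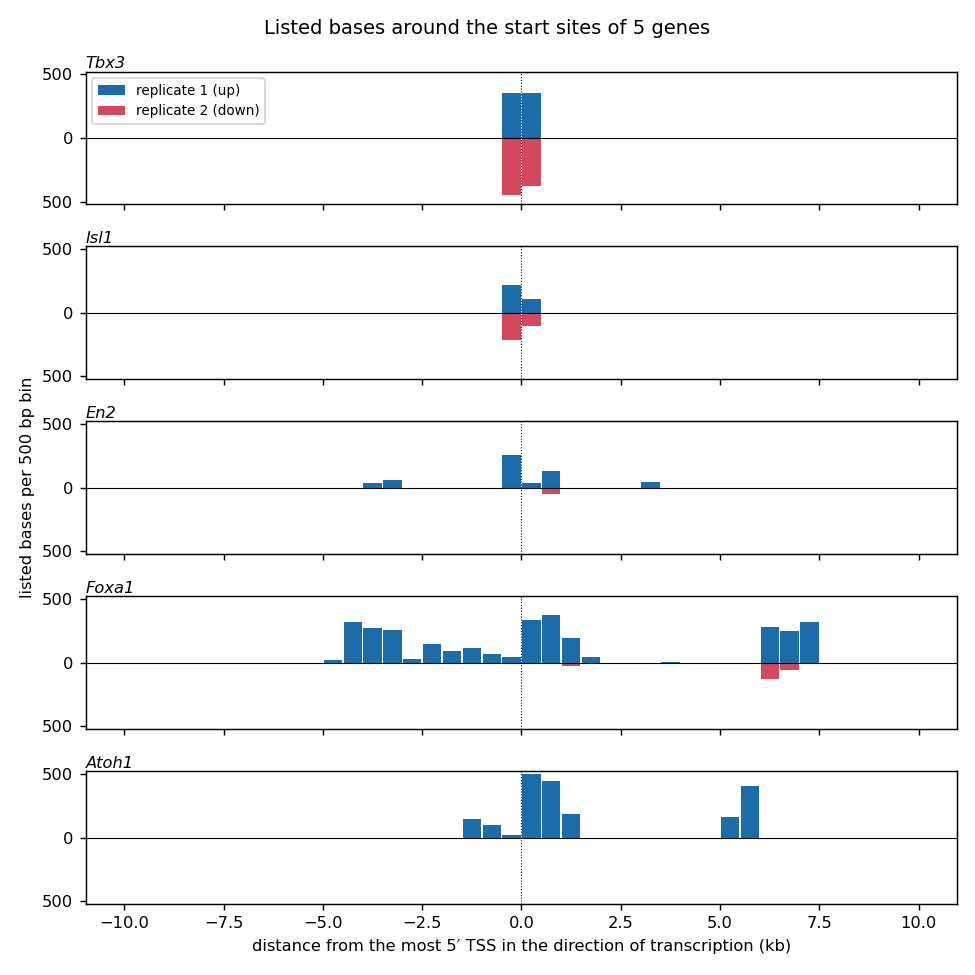
Listed bases per 500 bp bin (y axis, replicate 1 upward and replicate 2 downward) by distance from the most upstream TSS (x axis, kb) for 5 genes. Tbx3 and Isl1 fill only the bins beside the TSS in both libraries, whereas the bases of Atoh1 (1964 and 0 within 10 kb) and Foxa1 (3159 and 219) are spread over several kb and come from replicate 1.

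Among the other midbrain, hindbrain and spinal cord regulators, En2, a homeobox gene of the midbrain and hindbrain boundary, had 425 and 53 listed promoter bases and a replicate 1 peak of 0.772. Its partner En1 had 88 and 12 and no shorter-list peak. The LIM homeodomain genes Lhx3, Lhx4 and Lhx5, which act in spinal cord neurons and, for Lhx3 and Lhx4, the pituitary, had some listed promoter bases in both libraries. Lhx3 had 243 and 91 listed bases and a peak of 1.06 in replicate 1, Lhx4 had 128 and 288 and a peak of 0.634 in replicate 2, and Lhx5 had 120 and 261 and a peak of 0.621 in replicate 2. For all 3, the longer list held a promoter peak in the library where the shorter list did not. Lhx1 had 0 and 173 listed bases, Pax2, which acts in midbrain, hindbrain and kidney, had 0 and 288, and Nkx2-2, a ventral spinal cord factor, had 60 and 0. The remaining 8 of this group had no listed promoter base in either library: Pax3, Pax7, Pax8, Phox2a, Lmx1a, Lmx1b, Fev and Nkx6-1. Phox2a specifies noradrenergic neurons, Fev serotonergic neurons, and Lmx1a and Lmx1b dopaminergic and other hindbrain and midbrain neurons. Cerebellar markers gave 1686 and 3392 listed promoter bases summed over 8 genes, with Barhl1, Gabra6, Pcp2 and Zic1 at 0 in both libraries. The sums came from Cbln1 (861 and 1344), Cbln3 (510 and 737), Calb2 (315 and 391) and Eomes (0 and 920). Replicate 2 also had more listed bases in all (59.99 Mb against 34.49 Mb), and the part of cerebellar tissue in the values of Atoh1 and En2 was not tested.

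The ventral forebrain factors lie nearest to the cortex in origin. Nkx2-1, which specifies cortical interneurons in the medial ganglionic eminence, had 0 and 224 listed promoter bases, and Six3, an anterior neural plate factor, had none. Neither had a shorter-list promoter peak. In bulk tissue such a value cannot tell apart few cells with an open promoter and many cells with a slightly open one.

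None of the 4 blood and lymphoid regulators had a shorter-list promoter peak. Tal1, a basic helix-loop-helix factor of blood and endothelial progenitors, had 493 and 154 listed bases of 5083, in replicate 1 the most of any of the 40 without such a peak. Gata2 (83 and 0) and Gata3 (16 and 0) had few, and Gata1, the erythroid factor, had none. Among erythroid and leukocyte markers, 6 of 8 were at 0 in both libraries, including Hba-a1, Hba-a2, Alas2 and Ptprc, and the sums were 749 and 849 bases. Endothelial markers summed to 1676 and 360 listed bases, mostly from Kdr (967 and 252) and Flt1 (636 and 0), with 4 of 8 at 0. Cdh5 had 73 and 0, while Cldn5 went the other way, with 0 and 108. Like Tal1 and Gata2, the endothelial sum was higher in replicate 1, and its part in their values was not tested.

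Of the 9 heart and limb regulators, Tbx3 alone had a shorter-list promoter peak. Tbx5, its neighbour on chromosome 5 and a factor of heart and forelimb, had 201 and 151 listed bases and a longer-list promoter peak in both libraries. Gata4 (0 and 29) and Hand2 (33 and 0) had a trace, and Gata5, Gata6, Nkx2-5, Hand1 and Tbx1 had none. In the gut endoderm pair, Foxa2, the floor plate factor, had no listed promoter base, in contrast to Foxa1 in replicate 1. Its peak at chr2:148048561-148048740 (1.56 in replicate 1, and 0.621 over a narrower stretch in replicate 2) lay 1592 and 1612 bp upstream of the TSS, beyond the 1 kb limit. Of the 5 genes of axial skeleton, kidney and skeletal muscle, Pax9, a sclerotome and tooth factor, had 308 and 237 listed bases and a replicate 2 peak of 0.587 over 54 bases of a UTR. That peak was centred 3828 bp downstream of the most upstream TSS, 18 bp from another Pax9 start site. With only the most upstream TSS of each gene, Pax9 had no promoter peak. Six2, which keeps nephron progenitors, had 0 and 125. Pax1 and the muscle determination factors Myod1 and Myf5 had none.

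Outside their promoters the 40 genes were not empty. A distal peak, meaning a shorter-list peak more than 1 kb from every annotated TSS and inside the gene body or the 10 kb on either side, was found at 25 and 21 of the 40, against 58.3% and 67.4% of all genes. The 40 are shorter, with a median length of 10.6 kb against 17.4 kb. Per 100 kb, the median was 1.92 and 0.923 distal peaks over the 40, against 1.73 and 3.18 over all genes and 4.27 and 8.30 over the cortical factors. The order of the 40 against all genes differed between the libraries. En1, En2, Lhx1, Pax8, Phox2a, Isl1, Pax9, Nkx2-5, Gata1, Gata5, Hand2 and Tbx3 had no distal peak in either library. A share of 30.7% of all genes had none, beside these 12 of 40.

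The distal peaks numbered 44 and 43, of which 32 in each library overlapped a peak of the other (72.7% and 74.4%, against 86.9% and 49.1% of all distal peaks). They were of ordinary strength, unlike the promoter peaks. Their median signal was 1.08 and 0.874, against 1.12 and 0.827 over all distal peaks, and their range was 0.396 to 8.10 and 0.234 to 2.62. In replicate 1, 18 lay in introns, 18 between genes, 3 in coding exons, 3 in UTRs and 2 in noncoding exons. Of the 32 shared peaks, 28 belonged to 15 genes that had no promoter peak in either library, among 18 genes with a shared peak. Most of the 40 (31) had no promoter peak in either library. The matching share over all genes was not computed, so the count is a description only.

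The strongest was in the 3′ UTR of Lhx5 (chr5:120440821-120441000 in both libraries), 9212 bp from the TSS, with a signal of 8.10 and 2.62. Lmx1b had the most, 9 in each library. One of them, chr2:33643181-33643360 in replicate 1, was centred at -2760 bp from the TSS (upstream) in a noncoding exon, nearest the antisense gene C130021I20Rik, and had signals of 3.11 and 1.52. Lmx1a had 4 and 6, with signals of 0.455 to 1.19 and 0.234 to 0.874. Gata4 had 3 and 3, the highest at 4.57 and 1.98 (chr14:63195881-63196060), although the TSS nearest to that peak is that of the DNA repair gene Neil2. Nkx2-2 had 3 and 2, the highest in a coding exon (chr2:147177801-147177980, 4.04 and 2.20), nearest the antisense gene Nkx2-2os. Nkx2-1 had a peak centred at -4363 bp from its TSS (upstream), in a noncoding exon and nearest the antisense gene Gm26973, with signals of 3.55 and 1.88. Six3 had a peak of 3.35 and 1.73 past its 3′ end. Pax7 had a UTR peak inside its own gene body, with signals of 1.99 and 2.44. The TSS nearest to that peak, that of the taste receptor gene Tas1r2, lay 83612 and 83572 bp away. Of the shorter-list peaks that overlapped none in the shorter list of the other library, the strongest were in replicate 1, at Lhx4 (2.68, chr1:155721561-155721720, intron) and Myod1 (2.49, chr7:46379101-46379280, intergenic), and both overlapped a longer-list peak of replicate 2.

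**Figure D4:**
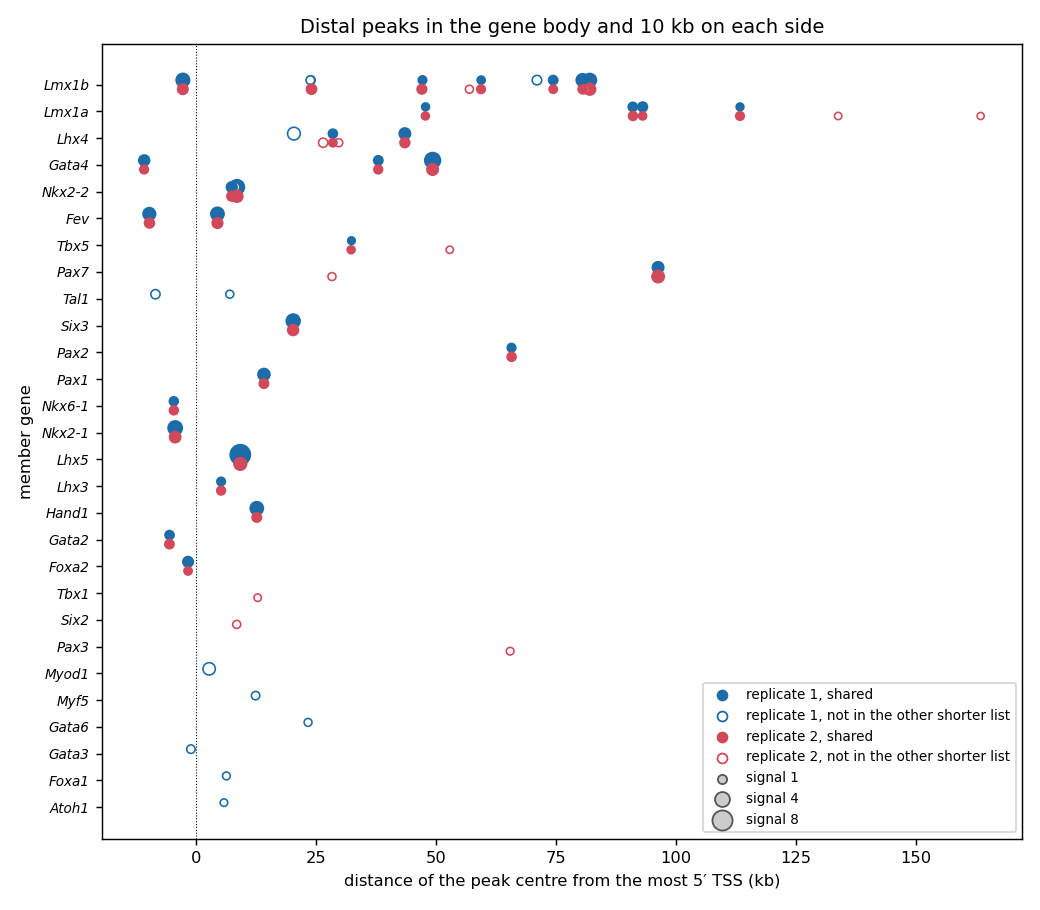
Distal peaks of the 28 genes that had any (y axis), by distance of the peak centre from the most upstream TSS (x axis, kb), with point area rising with peak signal. Filled points are shared by the libraries, and the largest is the Lhx5 peak, at 8.10 in replicate 1 and 2.62 in replicate 2.

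Several of the shared distal peaks contain the core consensus of CTCF, the zinc finger protein that anchors chromatin loops and insulators, which binds in most tissues. The consensus, 12 letters searched on both strands with at most 1 mismatch, was found in 17 of 44 and 12 of 43 distal peaks of the 40 genes, against 28.9% and 17.0% of all distal peaks. Among shared peaks it was found in 12 of 32 (37.5%) in each library, against 29.1% and 29.5%. The 6 below were chosen after their values were seen, to show the matched letters beside genes with no promoter peak and in the strongest peak, that of Lhx5. Each is on the plus strand of GRCm38.p6 with the match in capitals, the Lhx5 peak being cut to 30 bases around the match.
Lmx1b distal peak: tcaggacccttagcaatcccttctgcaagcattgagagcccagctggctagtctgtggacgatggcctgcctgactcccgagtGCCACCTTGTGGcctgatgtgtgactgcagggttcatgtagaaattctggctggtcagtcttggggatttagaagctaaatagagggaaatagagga
Fev distal peak: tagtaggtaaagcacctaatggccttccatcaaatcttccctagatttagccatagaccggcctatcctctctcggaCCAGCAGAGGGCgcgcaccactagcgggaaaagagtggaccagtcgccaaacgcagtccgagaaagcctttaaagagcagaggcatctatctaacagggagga
Hand1 distal peak: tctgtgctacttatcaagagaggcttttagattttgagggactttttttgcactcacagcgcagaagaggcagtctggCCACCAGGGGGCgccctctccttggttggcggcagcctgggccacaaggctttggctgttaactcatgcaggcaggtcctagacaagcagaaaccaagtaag
Pax1 distal peak: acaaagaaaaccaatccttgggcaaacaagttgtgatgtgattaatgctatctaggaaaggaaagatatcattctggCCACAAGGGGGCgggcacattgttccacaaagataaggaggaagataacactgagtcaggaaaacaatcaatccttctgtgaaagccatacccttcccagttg
Lmx1a distal peak: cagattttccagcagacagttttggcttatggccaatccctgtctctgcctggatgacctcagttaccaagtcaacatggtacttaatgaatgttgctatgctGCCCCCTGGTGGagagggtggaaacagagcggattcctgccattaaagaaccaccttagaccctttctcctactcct
Lhx5 distal site: cgagttggcGCCCCCTGGTGGctcaatgtc

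The Lmx1b peak (chr2:33558361-33558540), past the 3′ end of the gene, had signals of 3.01 and 2.12, and its match has 1 mismatch and reads on the minus strand. The Fev peak (chr1:74880881-74881060, 4262 bp from the TSS) had signals of 3.0 and 1.58, the Hand1 peak (chr11:57820081-57820260) 2.96 and 1.11, and the Pax1 peak (chr2:147379041-147379220) 2.32 and 1.07. The match is exact at Fev and Hand1 and has 1 mismatch at Pax1. The intronic Lmx1a peak (chr1:167782221-167782400, 1.19 and 0.561) and the Lhx5 site (chr5:120440903-120440932) hold an exact match on the minus strand. A match describes the letters of the peak and does not show that the protein was bound. Lmx1b, Fev, Hand1, Pax1 and Lmx1a had no promoter peak in either library.

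Signals at the shared distal peaks leaned to replicate 1. The median log2 ratio of replicate 1 over replicate 2 was 0.61 over the 32 peaks, 22 of which were higher in replicate 1, against -0.02 and 48.9% over all 41562 shared distal peaks. With the CTCF consensus the median was 1.01 (a ratio of 2.01), and 12 of 12 were higher in replicate 1, against 0.64 and 81.9% over all. Without it the median was 0.06 with 10 of 20 higher, against -0.22 and 35.4% over all. How the deposited signal was scaled is not stated, so a ratio between libraries is read only against that of all distal peaks.

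**Figure D5:**
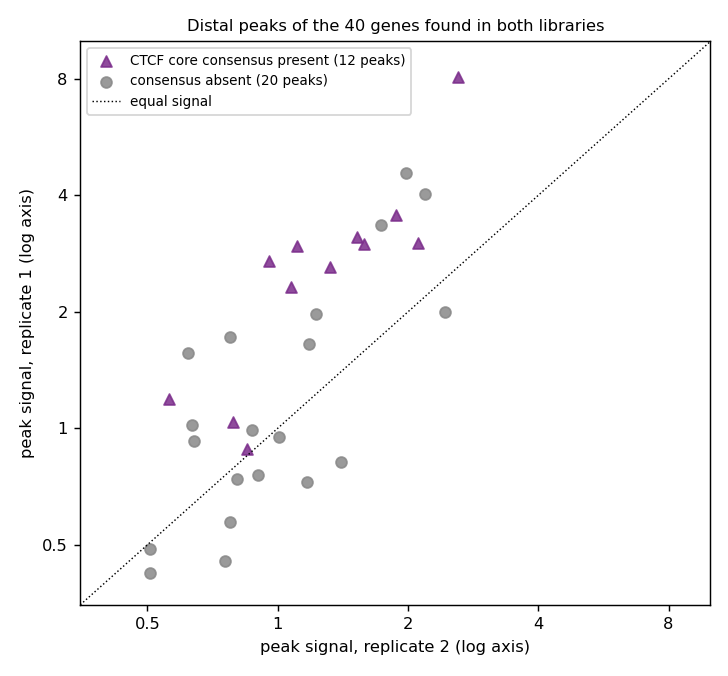
Peak signal in replicate 1 (y axis, log scale) against replicate 2 (x axis, log scale) for the 32 distal peaks of the 40 genes found in both libraries, with purple triangles for peaks holding the CTCF core consensus. All 12 triangles lie above the dotted line of equal signal, and 10 of the 20 grey points do.

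Motifs of 4 other factor families were each found in few distal peaks of the 40 genes. AP-1, searched as TGA and TCA with 1 free letter between them, was found in 3 of 44 and 4 of 43 distal peaks of the 40 genes, against 12.3% and 18.3% of all distal peaks. The E-box of neuronal basic helix-loop-helix factors, CAGATGG, was in 2 and 3, against 11.3% and 12.7%. NFI, searched as TGGC and GCCA with 5 free letters between them, was in 2 and 2, against 2.35% and 1.48%, and the site AGATAAG of erythroid and endothelial zinc finger factors such as Gata1 was in 2 and 3, against 1.22% and 1.79%. All 4 were searched on both strands with no mismatch allowed, and overlaps between motifs were not removed. In both libraries the shares of AP-1 and the E-box lay below those of all distal peaks, and the shares of NFI and AGATAAG lay above. These counts are small and describe these peaks only.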

How the data were processed

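DNase-seq was measured in 2 libraries of aged mouse cortex, grouped by the labels as 1 group. Per the deposited notes and file headers, the authors called peaks and footprints in each library separately on mm10. No source used here names the aligner, the peak caller or its thresholds. The signal of a peak is the authors' value, of unstated scaling. The per-base q-values that the authors deposited are false discovery rates, here used at 0.05 or below. The footprint score was 0.01 throughout and was not used. Read totals were not used, so no counting interval is given.

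Start sites came from the GENCODE M21 basic annotation (GRCm38.p6), chromosomes 1 to 19, X and Y. An overlap of at least 1 bp counted. Sequences were read from the RefSeq copy of that build. One upstream sequence is not reported here. The C57BL/6J reference can miss peaks on CAST alleles. The software was python 3.11.15, numpy 2.4.6, pandas 2.3.3 and, for figures, matplotlib 3.10.9. The overlap code was tested on simulated data. Members and lists were chosen with earlier results of these data known. Any member could be named, in full those with a promoter peak and the 3 without one that had the most or fewest listed bases or the most distal peaks. Of paralogues and cortical factors, the 4 with the highest mean signal and the first 4 by alphabet without a peak were named, of other genes those nearest a named peak. Marker genes named by their listed bases were chosen after their values were seen. Other windows, peak lists, start sites and flanks were tried.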

Additional observations from a re-analysis of the deposited data

How the results depend on the processing

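The low count of promoter peaks at the 40 genes held its direction under every alternative run, with a mean of 3.5 to 14 of 40 against 58.8% to 65.5% of all genes. The largest move came with the longer, wider list (14, from 15 and 13). When the replicate 2 list was cut by peak strength to the size of the replicate 1 list, the mean count was 3.5 (6 and 1). The replicate 1 list was not shortened by this, and Tbx3 alone was left in replicate 2. Leaving out each library in turn gave 5 to 6 members, 60.7% to 61.2% of all genes and, in the longer list, 13 to 15 members. The median distal peaks per 100 kb, 1.42 as the mean of the libraries, was 0 with no flank and 3.50 with the longer list, and 0.923 to 1.92 with each library left out. The median listed share was 0, was 0.075% with a 2 kb window, and 0 to 0 with each library left out. Of 11 promoter signals, 9 were the same within 500 bp, while Lhx4 and Foxa1 had no peak there. With the comprehensive annotation, an alternative added after seeing the data, the count was 6 and Lhx3 had a peak in both libraries. No paired analysis was possible because there is 1 group. Read totals were not used, and how depth bears on the calls was not tested. A promoter without a peak was not detected as open here, which does not show that it is closed in every cell.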

Other observations

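Some peaks near the 40 genes lay at the start sites of other genes and so were counted neither as promoter nor as distal peaks. One was beside Tbx3, at chr5:119691221-119691380, 3 bp from the TSS of the noncoding gene Tbx3os2, with signals of 3.51 and 2.02, each above those of the Tbx3 promoter (0.976 and 0.854). Within 10 kb of Lhx1, whose own promoter had no shorter-list peak, the start site of its neighbour Aatf had a peak of 4.90 and 4.36. Near Fev, peaks at and within 1 kb of the start site of Cryba2, a lens crystallin gene, had signals of 1.12 and 1.06 in replicate 1 and 1.13 and 0.727 in replicate 2, while Fev had no listed promoter base.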
